A study of Mus musculus with 7 samples.

Results

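The 50 genes described here code for proteins that copy DNA or that are made for S phase, the phase of the cell cycle in which DNA is copied. They were named by symbol in a list of replication and S-phase genes, with no threshold on their values, and make up 50 of the 32286 features counted. All 50 are protein coding, and all passed a filter of at least 5 CPM (UMIs of a gene per 1000000 UMIs of the library) as the mean over the 7 libraries. For the text they were sorted into 9 roles. These are origin licensing (10 genes), helicase activation (6), the sliding clamp and its loader (6), polymerases and primase (9), strand binding and joining (4), nucleotide supply (5), repair and checkpoint (3), copying of chromatin marks (4) and transcription regulators (3).

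DNA copying starts at origins, where the origin recognition complex with CDC6 and CDT1 loads the ring-shaped MCM helicase in G1. The helicase is switched on in S phase by CDC45, MCM10 and the GINS complex, after which primase and the polymerases copy both strands, held to the template by the PCNA clamp. Genes for these proteins are classic targets of E2F transcription factors, which become active as cells pass from rest or G1 into S phase. In the thymus, cells that have made a working receptor chain divide in a burst, while cells that still rearrange their receptor genes divide little.

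Transcripts were counted as UMIs (unique molecular identifiers, each marking 1 captured molecule) in single thymocytes of C57BL/6 mice, sorted by stage. The 5 WT sorts, written here as DN3a, DN3b γδ− and γδ+, and DN4 γδ− and γδ+, with WT before the name in the plots, came from pooled thymi of WT mice aged 6 to 8 weeks, after beads had removed CD4+ and CD8+ cells. DN3a is the CD4− CD8− (double-negative, DN) stage before selection, DN3b and DN4 follow it, and γδ+ or γδ− marks cells with or without surface γδ T-cell receptor (γδ TCR). The DN3b γδ− and DN4 γδ− cells were sorted as positive for CD71, the transferrin receptor, which told DN3b γδ− from DN3a. CD71 is high on dividing cells, so that gate and the S-phase genes are not independent, and its part in the ratios was not tested. The other 2 sorts were DN3 cells, written as Lat-KO γδ− and Lat-KO γδint (intermediate surface γδ TCR), and came from Lat-/- TCRd-H2BEGFP mice, which lack the TCR signalling adaptor LAT and carry a green fluorescent reporter in Trdc. Every sort was spiked with 500 splenic B cells. Values for all 7 libraries without names follow 1 order, which is DN3a, the γδ− libraries (DN3b, then DN4), the γδ+ libraries (DN3b, then DN4), Lat-KO γδ− and Lat-KO γδint. Each group was 1 library, so no difference was tested, group and library cannot be told apart, and the Lat deletion cannot be told apart from the reporter allele. Intervals of levels, ratios and shares are exact 95% intervals and cover counting error only.

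Thymocyte barcodes, defined as those with at most 1 UMI of the B cell genes Cd79a, Cd79b and Ms4a1 together, numbered 5274 to 18515 per library and held 37820685 to 338698944 UMIs, with a median of 5737.5 to 18506 UMIs per barcode. Lat was at 357 to 648 CPM in the WT libraries and at 4.83 and 0.90 CPM in Lat-KO γδ− and γδint, while Trdc was at 201 to 1844 CPM in WT and 24.0 and 36.3 CPM in Lat-KO. The edited gene of the reporter mice is counted as a separate feature, Trdc-GFP, with 0 to 3 UMIs in the WT libraries, and with it Trdc came to 54.5 and 80.5 CPM in Lat-KO. Summed T cell markers were at 6389 to 13068 CPM. Erythroid markers ran from 0.17 CPM in DN3a to 169.8 CPM in DN4 γδ−, NK cell markers from 221 CPM in DN3a to 2453 CPM in DN4 γδ+ with Ncr1 at 0 in every library, and myeloid markers from 100 to 192 CPM. Their part in the results was not tested. Between 181 and 426 barcode sequences per library also occurred in another library. Ribosomal-protein genes took 27.7% to 33.7% of UMIs, apart from Lat-KO γδint, where they took 18.2%. The B-like barcodes of that library showed the same, with 19.5% against 29.7% to 35.1% elsewhere.

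Promoter sequences, which the list did not use, were searched for short words of bases. RefSeq gives a promoter window (build GRCm38.p6) of 300 bases, 250 before to 50 after a start, for 42 of the 50 genes. An E2F-type word, meaning TTTGGCGC, TTTGCCGC, TTTCGCGC or TTTCCCGC on either strand, was found for 17 of the 42 genes (40.5%) and for 704 of 27025 genes with a window (2.605%). The words can overlap each other on opposite strands. The word CCAAT on either strand was found for 25 of the 42 genes (59.5%) and for 41.1% of all genes. The 250 bases before the start are printed for 6 genes, with E2F-type words in capitals. Cdc6, Mcm5 and Mcm6 are licensing genes with such a word, E2f8 and Rrm2 have the highest ratios described below and no such word, and Uhrf1, in the window of its 2 that holds a word, is the gene that departs most from the rest. The 6 were chosen after their values were seen.
Cdc6: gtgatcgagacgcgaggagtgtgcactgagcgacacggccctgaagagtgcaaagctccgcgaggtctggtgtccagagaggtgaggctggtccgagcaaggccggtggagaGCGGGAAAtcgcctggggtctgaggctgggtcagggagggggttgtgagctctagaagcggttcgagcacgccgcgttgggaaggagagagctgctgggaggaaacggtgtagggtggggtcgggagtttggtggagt
Mcm5: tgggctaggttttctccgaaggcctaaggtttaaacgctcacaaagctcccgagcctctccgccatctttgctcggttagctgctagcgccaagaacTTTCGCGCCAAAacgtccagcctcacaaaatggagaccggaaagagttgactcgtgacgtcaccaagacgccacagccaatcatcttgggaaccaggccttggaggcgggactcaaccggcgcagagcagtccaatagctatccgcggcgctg
Mcm6: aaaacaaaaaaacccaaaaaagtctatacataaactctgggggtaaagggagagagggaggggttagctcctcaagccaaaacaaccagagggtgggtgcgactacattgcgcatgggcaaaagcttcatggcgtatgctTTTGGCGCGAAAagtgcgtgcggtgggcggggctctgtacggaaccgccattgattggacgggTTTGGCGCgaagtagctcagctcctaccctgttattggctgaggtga
Uhrf1: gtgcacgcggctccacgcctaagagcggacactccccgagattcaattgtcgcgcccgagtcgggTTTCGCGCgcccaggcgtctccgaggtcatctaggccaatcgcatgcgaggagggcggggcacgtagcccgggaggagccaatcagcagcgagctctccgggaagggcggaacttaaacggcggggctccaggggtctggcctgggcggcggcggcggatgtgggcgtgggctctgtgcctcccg
Rrm2: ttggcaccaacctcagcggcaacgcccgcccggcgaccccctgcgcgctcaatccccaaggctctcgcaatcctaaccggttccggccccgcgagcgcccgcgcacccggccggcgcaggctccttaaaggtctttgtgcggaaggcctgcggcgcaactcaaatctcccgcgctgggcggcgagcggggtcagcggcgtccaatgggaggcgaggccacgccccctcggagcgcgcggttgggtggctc
E2f8: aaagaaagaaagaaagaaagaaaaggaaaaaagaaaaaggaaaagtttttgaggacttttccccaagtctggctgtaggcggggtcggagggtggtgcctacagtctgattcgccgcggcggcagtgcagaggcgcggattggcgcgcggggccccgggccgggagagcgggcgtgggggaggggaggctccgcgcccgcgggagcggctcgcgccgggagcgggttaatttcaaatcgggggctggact
They lie at chr11:98907901-98908150, chr8:75109259-75109508, chr17:56304063-56304312 and chr12:24708004-24708253 on the plus strand and at chr1:128359706-128359955 and chr7:48881597-48881846 on the minus strand, each read 5′ to 3′ along its gene. In Mcm5 and in the first run of Mcm6, the 12 capitals hold overlapping words on both strands. The 17 genes with a word had a median log2 ratio of DN3b γδ− over DN3a of 1.75 (lowest gene 0.01, highest 3.34). The 25 without one had 1.91 (lowest 1.01, highest 4.51). The words are a match of letters and not a measured binding site.

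The 50 genes were together low in DN3a, high in DN3b γδ−, DN4 γδ− and DN3b γδ+, and low again in DN4 γδ+. Summed over the list, they took 2114 CPM in DN3a, 6875 and 6762 in the γδ− sorts (DN3b, then DN4), and 6796 and 2796 in the γδ+ ones. The sum was 2432 CPM in Lat-KO γδ− and 5763 in Lat-KO γδint. By CPM, the DN3b libraries and DN4 γδ− thus lay close together, Lat-KO γδint came next, and the remaining libraries were well below them. Scaled by trimmed means (TMM) in place of total UMIs, the sums were 2015 in DN3a, 8418 and 8288 in the γδ− sorts, and 8113 and 2704 in the γδ+ ones. They were 2063 in Lat-KO γδ− and 4113 in Lat-KO γδint, which then lay far below the DN3b libraries and DN4 γδ−. The same genes also differed in the barcodes of the spiked B cells, which were mixed into the sorts and can hold free RNA of the thymocytes. Its part was not tested. B-like barcodes (B cell markers with 10 UMIs or more, and 2 times the T cell marker UMIs or more) held 854, 2312, 2530, 2344, 934, 1096 and 1581 CPM of the list in the same order of libraries. With the CPM of the B-like barcodes subtracted, 43 genes kept a ratio to DN3a, and its median on the log2 scale was 2.08 for DN3b γδ−, 1.88 for DN4 γδ− and 2.01 for DN3b γδ+.

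**Figure D1:**
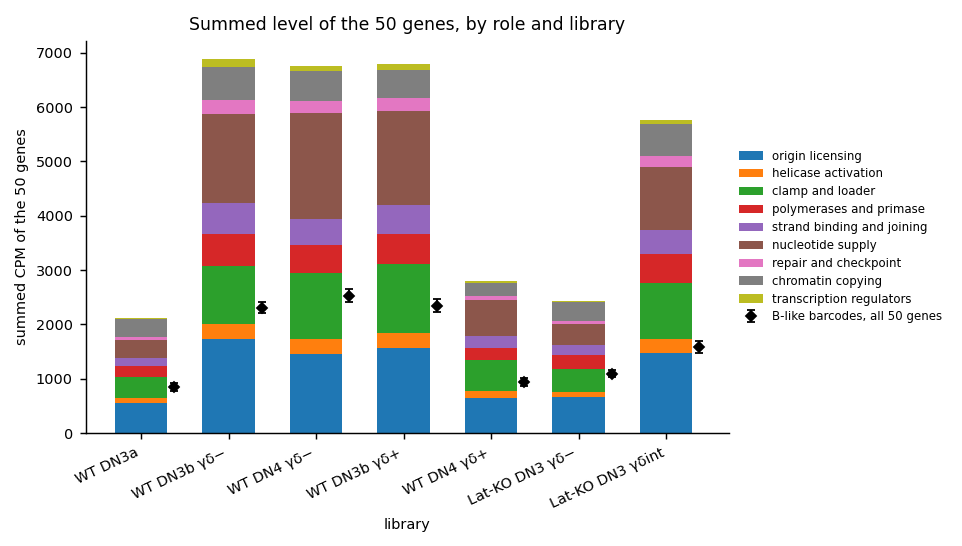
Summed CPM of the 50 genes per library (y axis, linear), with bars stacked by role and a diamond for the same 50 genes in the B-like barcodes of that library (vertical line, exact Poisson 95% interval). The DN3b and DN4 γδ− libraries reach 6762 to 6875 CPM, DN3a is at 2114 CPM and Lat-KO γδint at 5763 CPM, and every diamond lies below its bar. With TMM scaling, not drawn, Lat-KO γδint is at 4113 against 8113 to 8418 in the DN3b and DN4 γδ− libraries.

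The first question was how the genes change from the DN3a stage to the stages after it. Ratios to DN3a share that 1 library as their base and are given side by side. The median log2 ratio over the 50 genes was 1.83 in DN3b γδ− (3.55-fold), 1.79 in DN4 γδ− (3.45-fold) and 1.84 in DN3b γδ+ (3.58-fold), while the median of all features that passed the filter was −0.11, −0.23 and −0.11. In DN3b γδ−, 47 of 50 genes were at least 2-fold higher than in DN3a, against 9.87% of all 9100 features with a ratio. In DN4 γδ− it was 42 of 50 against 7.59%, and in DN3b γδ+ it was 46 of 50 against 10.2%. None of the 50 was at least 2-fold lower in these 3 comparisons, against 16.8%, 19.8% and 15.6% of all features. Every gene of the licensing, clamp, strand joining, nucleotide, repair and regulator groups passed 2-fold in DN3b γδ−. The 3 that did not were Uhrf1, Prim2 and Gins4. In DN4 γδ− Mcm2, Mcm6, Rfc2, Pold1 and Ung also stayed under 2-fold, at 0.90 to 0.99, and in DN3b γδ+ Pold1 did, at 0.86. Scaling by trimmed means (TMM) in place of total UMIs shifts all ratios of these 3 comparisons up by 0.36, 0.36 and 0.32, and with it 48 of 50 genes passed in each, all but Uhrf1 and Prim2, against 18.3%, 14.6% and 17.1% of all features.

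**Figure D2:**
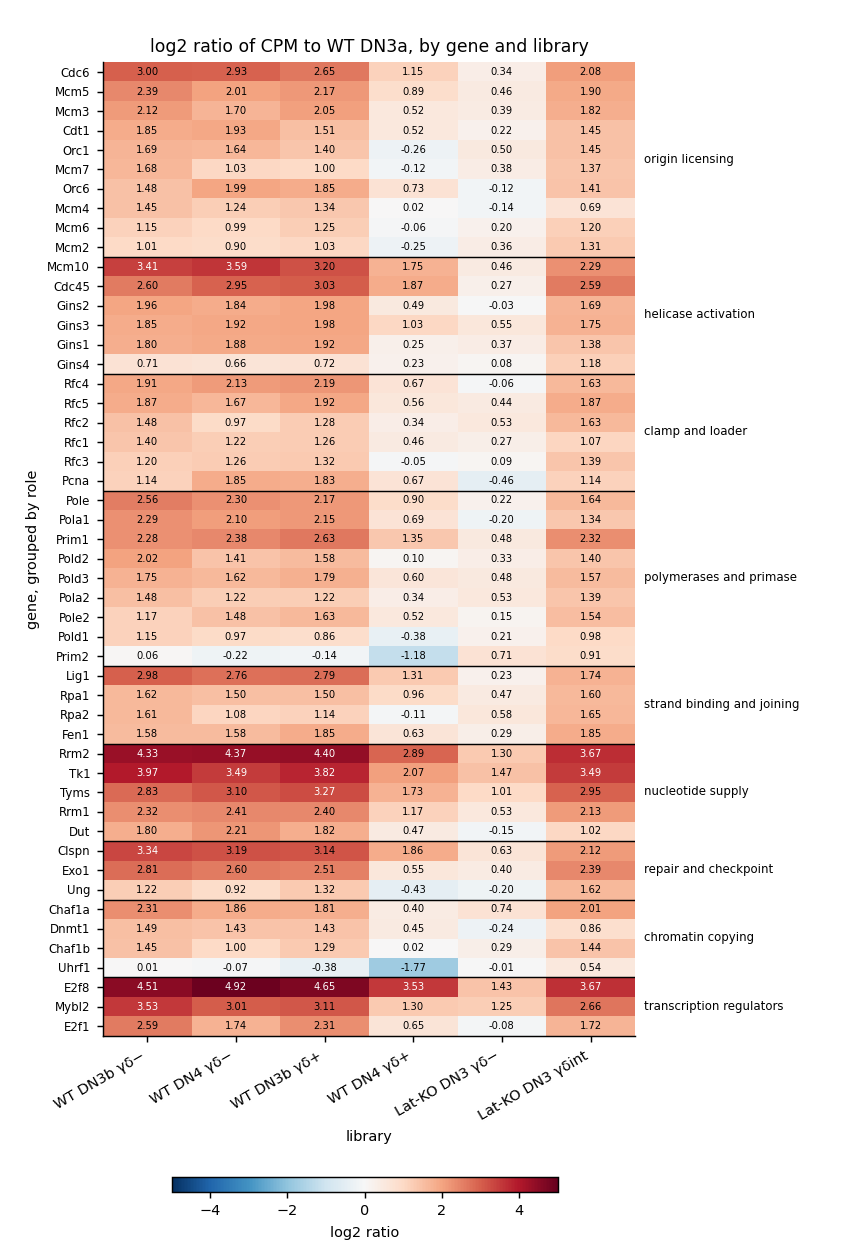
Heat map of log2 ratios of CPM to DN3a, with a row for each of the 50 genes, grouped by role and ordered by the DN3b γδ− value, and a column for each other library. Red is higher and blue is lower than DN3a, and the value is written in each cell. The columns for DN3b γδ−, DN4 γδ−, DN3b γδ+ and Lat-KO γδint are red nearly throughout, with Uhrf1 and Prim2 pale (0.01 and 0.06 in DN3b γδ−), and E2f8 and Rrm2 are the darkest (4.51 and 4.33).

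Among the licensing genes, Cdc6 had the largest ratio and Mcm2, a subunit of the MCM ring, the smallest. Cdc6, which helps to load that ring, was at 7.03 CPM in DN3a, at 56.2 and 53.8 in the γδ− sorts (DN3b, then DN4), at 44.1 and 15.6 in the γδ+ ones, and at 8.91 in Lat-KO γδ− and 29.8 in Lat-KO γδint. Its log2 ratio of DN3b γδ− over DN3a was 2.998 (2.85 to 3.15). Mcm2 was at 61.3, 123.7, 115, 125, 51.7, 79.0 and 152 CPM in the same order, with a ratio of 1.01 (0.96 to 1.06). Lat-KO γδint had the highest CPM of Mcm2, but with TMM scaling it fell to 109 against 151 in DN3b γδ−. The 6 MCM ring genes did not move by equal amounts, with ratios from 1.01 for Mcm2 and 1.15 for Mcm6 to 2.12 for Mcm3 and 2.39 for Mcm5. Orc1 and Orc6, both of the origin recognition complex, had 1.69 and 1.48, and Cdt1, the partner of CDC6 in loading, had 1.85.

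The helicase activators had a median ratio of 1.91. Mcm10, which helps the helicase to start, was at 4.02, 42.8, 48.4, 36.9, 13.5, 5.53 and 19.7 CPM over the 7 libraries, lowest in DN3a and Lat-KO γδ−. Its ratio was 3.41 (3.22 to 3.61). Gins4, a subunit of the same GINS complex as Gins1, Gins2 and Gins3, was at 40.0, 65.2, 63.2, 65.9, 46.8, 42.4 and 90.7 CPM, a ratio of 0.71 (0.64 to 0.77). The other GINS genes had 1.80 to 1.96, so the 4 genes of 1 complex did not move together. Cdc45, which completes the active helicase, had 2.60.

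In the clamp group, Rfc4, a subunit of the clamp loader, was at 43.3, 163, 189, 197, 68.7, 41.6 and 134 CPM, with a ratio of 1.91 (1.86 to 1.98). Pcna, the sliding clamp, was at 146, 322, 527, 521, 232, 106 and 324 CPM and had the smallest ratio of the group, 1.14 (1.11 to 1.17). In DN4 γδ− and DN3b γδ+, however, its ratio to DN3a was 1.85 and 1.83, and Pcna was the gene that stood highest in both libraries relative to DN3b γδ−. The 4 other loader genes had ratios of 1.20 to 1.87 in DN3b γδ−.

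In the polymerase group, the subunits of primase differed from each other. Prim1 and Prim2 code for the catalytic and the regulatory subunit of primase, which lays down the RNA primers. Prim1 was at 19.2 CPM in DN3a and 93.2 in DN3b γδ−, a ratio of 2.28. Prim2 was at 43.0, 44.8, 36.8, 39.1, 18.9, 70.1 and 80.9 CPM, a ratio of 0.06 (−0.00 to 0.12), and was highest in both Lat-KO libraries. Prim2 was lower than in DN3a in DN4 γδ− (−0.22) and in DN3b γδ+ (−0.14), signs that turn with TMM scaling, to 0.14 and 0.19. Pole, the catalytic subunit of the polymerase that copies the leading strand, led the group at 6.38, 37.7, 31.4, 28.7, 11.9, 7.41 and 19.8 CPM, with a ratio of 2.56 (2.41 to 2.72). Its partner Pole2 had 1.17, and the other 5 genes, Pola1, Pola2, Pold1, Pold2 and Pold3, had 1.15 to 2.29.

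Of the strand binding and joining genes, Lig1, the ligase that seals lagging-strand fragments, was at 32.6, 258, 222, 225, 81.0, 38.3 and 109 CPM, with a ratio of 2.98 (2.92 to 3.05). Fen1, which trims the fragments before they are sealed, was at 32.6, 97.3, 97.2, 118, 50.6, 39.9 and 118 CPM, with a ratio of 1.58 (1.51 to 1.65). Both were lowest in DN3a. In Lat-KO γδint, Fen1 was at the CPM of DN3b γδ+, its highest WT library, but at 84.1 against 140 with TMM scaling. Lig1 there was well below its 3 highest WT libraries with either scaling. Rpa1 and Rpa2, which coat single-stranded DNA, had ratios of 1.62 and 1.61.

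Nucleotide supply had the second highest group median, 2.83. Rrm2, the S-phase subunit of ribonucleotide reductase, was at 13.4, 270, 278, 283, 99.8, 33.2 and 172 CPM, with a ratio of 4.33 (4.22 to 4.44). Rrm1, the other subunit, had a ratio of 2.32. Dut, which removes dUTP so that uracil is kept out of DNA, was at 247, 864, 1142, 871, 342, 224 and 502 CPM, the smallest ratio of the group with 1.80 (1.78 to 1.83). Tk1, thymidine kinase, and Tyms, thymidylate synthase, had 3.97 and 2.83. Rrm2, Tk1 and Tyms were also among the 5 genes that passed 2-fold in Lat-KO γδ−.

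Clspn, which carries the checkpoint signal at stalled forks, was at 13.0, 132, 119, 115, 47.3, 20.2 and 56.6 CPM, with a ratio of 3.34 (3.23 to 3.44). Ung, the glycosylase that cuts uracil out of DNA, was at 37.4, 86.9, 71.0, 93.5, 27.7, 32.6 and 115 CPM, with a ratio of 1.22 (1.15 to 1.28). Ung was lowest in DN4 γδ+, where it was below DN3a. Its highest CPM was that of Lat-KO γδint, and with TMM scaling DN3b γδ+ was highest, at 112 against 82.3. Exo1, an exonuclease of mismatch repair, had 2.81.

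Of the genes that copy chromatin marks, Chaf1a, a subunit of the chromatin assembly factor that deposits histones behind the fork, was at 17.1, 85.1, 62.4, 60.1, 22.6, 28.5 and 69.0 CPM, with a ratio of 2.31 (2.22 to 2.41). Its partner Chaf1b had 1.45, with the limit that another counted gene, Gm49617, overlaps it on the same strand. Uhrf1, which guides the maintenance methylase DNMT1 to copied DNA, was at 204, 205, 194, 157, 59.8, 203 and 298 CPM. With TMM scaling it was at 195, 251, 238, 187, 57.8, 172 and 213. DN4 γδ+ was far below the other libraries with either scaling, whereas the order of the others depended on it, and Lat-KO γδint was highest by CPM only. The ratio of DN3b γδ− over DN3a was 0.01 (−0.02 to 0.04), and 0.37 with TMM scaling. That of DN4 γδ− over DN3a was −0.07, and 0.29 with TMM scaling. Dnmt1 itself was at 83.1 CPM in DN3a and 233 in DN3b γδ−, a ratio of 1.49. At 4000 UMIs per barcode, 49.7% of DN3a thymocyte barcodes had a UMI of Uhrf1, against 10.0% of the B-like barcodes of that library, and 53.7% did in DN3b γδ− (29.7% of B-like barcodes). Uhrf1 lies at chr17:56303321-56323486 and Prim2 at chr1:33453810-33669795 (mm10).

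The 3 regulators had the highest group median, 3.53. E2f8, a repressor of the E2F family that is itself made in S phase, was at 1.19, 27.1, 36.1, 29.97, 13.8, 3.22 and 15.1 CPM, with a ratio of 4.51 (4.16 to 4.89). E2f1, an activator, was at 9.92, 59.9, 33.1, 49.1, 15.6, 9.38 and 32.6 CPM, with a ratio of 2.59 (2.47 to 2.72). Mybl2, which acts with the MuvB complex from S phase on, had 3.53. E2f1 was higher in DN3b γδ− than in DN4 γδ−, the largest shift between these libraries in the list, whereas E2f8 was highest in DN4 γδ−.

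The αβ and γδ branches were compared directly within DN3b. The median log2 ratio of DN3b γδ+ over DN3b γδ− was −0.12 (all features, −0.04), and 0 of 50 genes passed 2-fold in either direction, where 5.05% of all features were at least 2-fold higher and 2.93% at least 2-fold lower. The ratios ran from −0.68 for Mcm7 to 0.69 for Pcna, with 22 above 0 and 28 below. Mcm7, another MCM ring subunit, was at 383 CPM in DN3b γδ− and 239.9 in DN3b γδ+. With TMM scaling the median was −0.15. On the αβ side, DN4 γδ− over DN3b γδ− gave a median of −0.13 (all features, −0.12), again with 0 of 50 past 2-fold in either direction, against 0.648% and 1.54% of all features. Here the ends were E2f1 at −0.86 and Pcna at 0.71. With a limit of 1.5-fold in place of 2-fold, Pcna was the 1 gene higher in each comparison (11.6% of all features for γδ+, 2.21% for DN4 γδ−). Lower were Mcm7 in DN3b γδ+ (9.68% of all features) and E2f1, Mcm7 and Pold2 in DN4 γδ− (8.75%).

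On the γδ side the list was lower at DN4. The median ratio of DN4 γδ+ over DN3b γδ+ was −1.28 (2.43-fold lower), with all features at 0.10. At least 2-fold lower were 42 of 50 genes, against 6.62% of all features, and 0 were at least 2-fold higher, against 11.1%. With the 8% of barcodes with the most UMIs left out of each library, the median was −1.90. Exo1 was the lowest at −1.96, followed by Mybl2 at −1.81, and Gins4 was the nearest to 0 at −0.49. Against DN3a, DN4 γδ+ still had a median of 0.54 (all features, −0.02), with 13 of 50 at least 2-fold higher (8.88% of all features) and 2 at least 2-fold lower (7.86%), namely Uhrf1 at −1.77 and Prim2 at −1.18. The genes that stayed above were led by E2f8 (3.53), Rrm2 (2.89) and Tk1 (2.07). Genes below DN3a without passing 2-fold were Ung (−0.43), Pold1 (−0.38), Orc1 (−0.26), Mcm2 (−0.25), Mcm7 (−0.12), Rpa2 (−0.11), Mcm6 (−0.06) and Rfc3 (−0.05). The intervals of Orc1 and Rfc3 included 0.

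The Lat-KO libraries address how cells with and without surface γδ TCR differ when LAT is missing. CD71 told DN3a from DN3b γδ−, whereas no CD71 gate is described for the Lat-KO DN3 sorts. The sorts in each ratio of a Lat-KO library to DN3a are therefore unlike, and the part of the gate in these ratios was not tested. The Lat-KO sorts are also described as made from total thymocytes, the WT sorts from bead-depleted ones. No age is given for the Lat-KO mice. The part of depletion or age was not tested. Lat-KO γδ− over DN3a gave a median of 0.35 (all features, 0.23), with 5 of 50 genes at least 2-fold higher (3.38% of all features) and 0 lower (0.923%). The 5 were Tk1 (1.47), E2f8 (1.43), Rrm2 (1.30), Mybl2 (1.25) and Tyms (1.01). With the 8% of barcodes with the most UMIs left out, 0 of 50 passed (2.82% of all features), and with barcodes thinned to 4000 UMIs each, 3 did (3.36%). Below DN3a were 11 genes, of which Pcna was the lowest at −0.46 (−0.51 to −0.41), then Dnmt1 (−0.24), Pola1 and Ung (both −0.20), Dut (−0.15), Mcm4 (−0.14), Orc6 (−0.12), E2f1 (−0.08), Rfc4 (−0.06), Gins2 (−0.03) and Uhrf1 (−0.01). The intervals of 7 lay below 0, and those of E2f1, Rfc4, Gins2 and Uhrf1 included 0. With TMM scaling 14 genes were below.

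Lat-KO γδint over DN3a gave a median of 1.63 (all features, 0.46), with 45 of 50 genes at least 2-fold higher (13.9% of all features) and 0 lower (4.63%). Over Lat-KO γδ− the median was 1.41 (all features, 0.20), with 41 of 50 at least 2-fold higher (4.95%) and 0 lower (3.48%). Rrm2 (2.37), Cdc45 (2.32) and E2f8 (2.23) had the largest ratios of that pair, and Prim2 (0.21, or −0.04 with TMM scaling) and Uhrf1 (0.55) the smallest. Since ribosomal-protein genes took a small share of UMIs in this library, the total was also formed without them. With ribosomal-protein and mitochondrial genes left out of the total, the medians were 1.29 over DN3a and 1.20 over Lat-KO γδ−, with 39 and 29 of 50 genes at least 2-fold higher, against 5.16% and 3.09% of all features scaled in the same way. With TMM scaling the medians were 1.21 and 1.16, with 32 and 28 genes against 4.19% and 2.86%. Transcripts under 1000 nt were lower in Lat-KO γδint than in Lat-KO γδ− (median log2 ratio of −0.73 over 473 features). The longest transcripts of the 50 genes run from 1087 nt, and the part of length in their ratios was not tested. The 9 genes of 1000 to 2000 nt had a median of 1.17 (all features of that length, 0.35) and the 13 of 4000 nt or more had 1.42 (0.15). By CPM, 9 of the 50 genes were highest in this library, and with TMM scaling 0 were. DN3b γδ− was the highest library for 22 genes (28 with TMM), DN3b γδ+ for 12 (12) and DN4 γδ− for 7 (9). The lowest library was DN3a for 31 genes (29), DN4 γδ+ for 10 (9) and Lat-KO γδ− for 9 (12). Counts of highest and lowest libraries were not formed over all features.

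Single barcodes showed how evenly the list was spread. Barcodes were thinned to 4000 UMIs, with 343 to 1769 shallower thymocyte barcodes per library left out. The median number of UMIs of the 50 genes per barcode was 6 in DN3a, 28, 27 and 28 in DN3b γδ−, DN4 γδ− and DN3b γδ+, 4 in DN4 γδ+, 6 in Lat-KO γδ− and 12 in Lat-KO γδint. A limit of 14 UMIs, which at most 5% of the 334 B-like barcodes reached, was reached by 8.87%, 89.97%, 88.1%, 86.0%, 15.4%, 8.90% and 42.3% of thymocyte barcodes. Within 2 UMIs of that limit lay 23.5% of the Lat-KO γδint barcodes, against 4.53% to 9.27% in the other libraries. In the same order, 0%, 18.9%, 5.13%, 1.92%, 0%, 4.84% and 0% of the 31 to 63 B-like barcodes per library reached it. In DN3b γδ−, DN4 γδ− and DN3b γδ+ most barcodes thus carried the list, whereas DN4 γδ+ was split, with a 90th percentile of 23 UMIs beside its median of 4. Lat-KO γδint was the most spread, from 6 at its 10th percentile to 45 at its 90th, the highest 90th percentile of the 7 libraries. That rank and the shares over the limit rest on total UMIs. Ribosomal-protein genes took 18.2% of UMIs in this library and 27.7% to 33.7% in the others. The TMM factor, by which CPM is divided, was 1.40 for it and 0.82 for DN3b γδ−. Counts per barcode were not formed with another scaling.

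**Figure D3:**
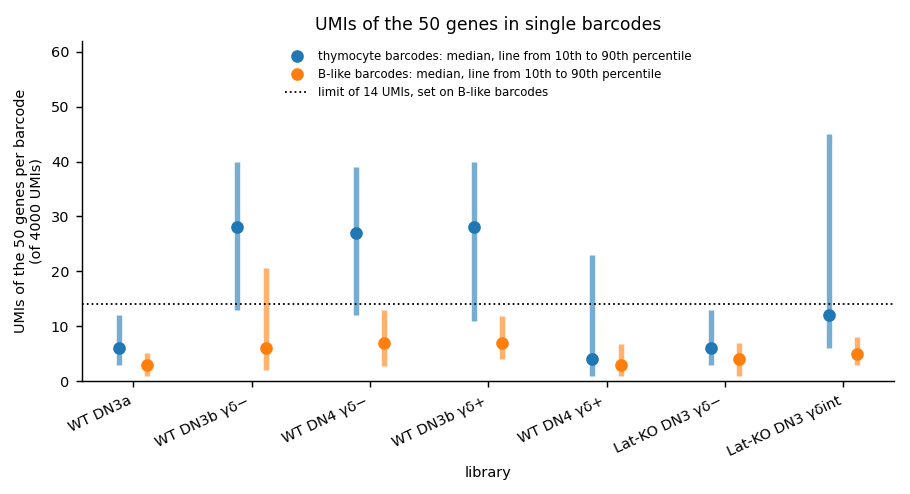
UMIs of the 50 genes per barcode thinned to 4000 UMIs (y axis), by library, for thymocyte and B-like barcodes. Points are medians and lines run from the 10th to the 90th percentile, and the dotted line is the limit of 14 UMIs. The medians of DN3b γδ−, DN4 γδ− and DN3b γδ+ are 28, 27 and 28, DN4 γδ+ has a median of 4 and a 90th percentile of 23, and Lat-KO γδint reaches 45. Counts are per 4000 UMIs of all genes, with no other scaling.

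To place the genes along the cell cycle, barcodes were split by 2 other gene sets, neither of which holds any of the 50. One was 62 replication-dependent histone genes, whose transcripts peak in S phase, and the other was 20 mitosis genes. A barcode was high for a set with at least 6 UMIs, a count reached by at most 5% of the B-like barcodes of all libraries together. Library by library, up to 13.5% of B-like barcodes were high for the mitosis genes (7 of 52, DN3b γδ+). For the histone genes it was up to 10.8% (4 of 37, DN3b γδ−). The classes are cuts of a range, not cell types. For example, 1818 of the 6749 DN3b γδ− barcodes high for both lay near the histone limit. Whether histone-high barcodes are cells in S phase was not tested. In DN3a they held less of the list (1585 CPM) than barcodes low for both (1808 CPM). Of DN3b γδ− barcodes, 26.1% were low for both, 11.3% histone-high, 38.2% high for both and 24.4% mitosis-high. With the limits doubled the shares were 55.9%, 5.56%, 7.19% and 31.4%, so they depend on the limits. The shares low for both were 88.9% in DN3a, 19.9% in DN4 γδ−, 40.7% in DN3b γδ+, 84.7% in DN4 γδ+ and 91.2% in Lat-KO γδ−. Histone transcripts are short, and transcripts under 1000 nt as a group were lower in Lat-KO γδint than in Lat-KO γδ−. Whether this lowers its histone counts was not tested. Its histone split is therefore not set beside those of the other libraries, and neither it nor the classes built on it are given. By the mitosis genes alone, 16.6% of Lat-KO γδint barcodes were high (1 of 31 B-like barcodes), against 3.59% in Lat-KO γδ−, 0.73% in DN3a, 13.3% in DN4 γδ+ and 50.4% to 62.6% in the other 3 libraries.

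The list summed in DN3b γδ− to 6728 CPM in barcodes low for both, 8696 in histone-high, 7047 in high for both and 5598 in mitosis-high barcodes. DN4 γδ− gave 5602, 7790, 7017 and 5042 CPM, and DN3b γδ+ gave 6307, 8190, 7049 and 5648 CPM. Histone-high was the highest class and mitosis-high the lowest in all 3, also with the limits doubled. Between the other 2, high for both was above low for both at these limits. With doubled limits this turned in the DN3b libraries and not in DN4 γδ−, as barcodes low for both and high for both then held 7292 and 6580 CPM in DN3b γδ−, 6096 and 6722 in DN4 γδ−, and 6751 and 6395 in DN3b γδ+. Of the 50 genes, 43 were highest in histone-high DN3b γδ− barcodes and 37 were lowest in mitosis-high ones. The same counts were 35 and 30 in DN4 γδ− and 37 and 31 in DN3b γδ+. Neither these counts nor the ratios by class given below were formed over all features.

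In DN3a the classes differed more. The few barcodes high for both (31 of 6462) held 6798 CPM (6347 to 7273), near the sum of the list in DN3b γδ−, while those low for both held 1808 CPM. The 671 histone-high barcodes of DN3a held 1585 CPM, but with the limits doubled only 34 were left and they held 5257 CPM. In DN4 γδ+, barcodes low for both held 1346 CPM, histone-high ones 6548, high for both 6435 and mitosis-high ones 1984. Thus the list in DN4 γδ+ over DN3b γδ+ had a median log2 ratio of −2.34 in barcodes low for both and −1.56 in mitosis-high ones, but −0.29 in histone-high and −0.12 in barcodes high for both. With the limits doubled, the histone-high sum was higher in DN4 γδ+ (9212 CPM) than in DN3b γδ+ (8721 CPM). The sums of the other classes stayed lower in DN4 γδ+. Against DN3a, DN4 γδ+ was lower in barcodes low for both, with a median of −0.13, 32 of 50 genes below 0 and a log2 ratio of the summed list of −0.43 (−0.45 to −0.41), whereas the median over all thymocyte barcodes was 0.54. Lat-KO γδ− over DN3a gave a median of 0.05 in barcodes low for both. In histone-high barcodes the medians over DN3a were 2.36 for DN4 γδ+ and 0.62 for Lat-KO γδ−, where 442 of the 671 barcodes of DN3a and 208 of the 317 of Lat-KO γδ− lay near the histone limit. With the limits doubled, histone-high barcodes held 5257 CPM in DN3a, 9212 in DN4 γδ+ and 7185 in Lat-KO γδ− (27 barcodes). The size of these differences thus depends on the limits.

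**Figure D4:**
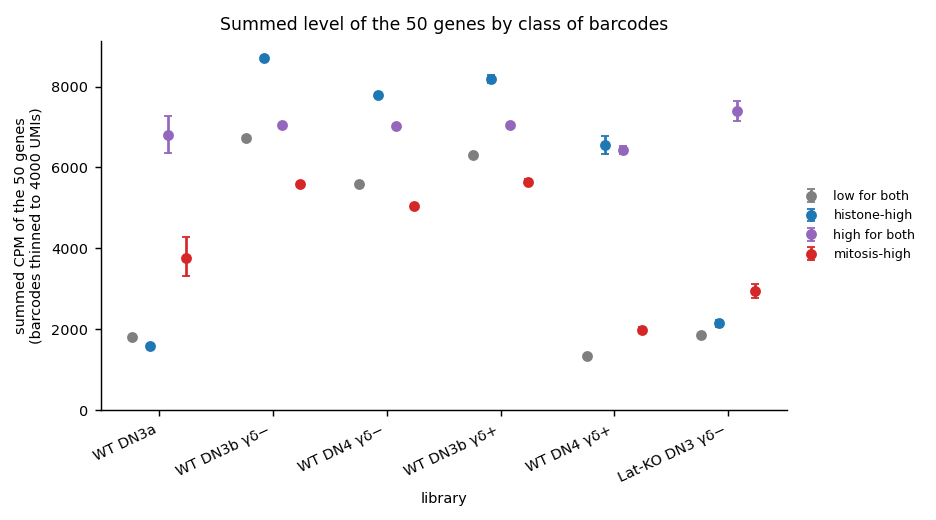
Summed CPM of the 50 genes (y axis, linear, barcodes thinned to 4000 UMIs) in 4 classes of barcodes for 6 libraries, with exact Poisson 95% intervals. In DN3b γδ−, DN4 γδ− and DN3b γδ+ all 4 classes lie between 5042 and 8696 CPM, while in DN3a, DN4 γδ+ and Lat-KO γδ− the barcodes low for both lie at 1346 to 1865 CPM.

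Single genes differed in where along the classes they were highest. Of the 50 genes, Ung fell the most from histone-high to high for both in each of the 4 WT libraries after DN3a. In DN3b γδ− it was at 192 CPM in barcodes low for both, 162 in histone-high, 35.3 in high for both and 60.0 in mitosis-high barcodes, a log2 ratio of −2.20 (−2.32 to −2.08) from histone-high to high for both. The same step was −1.86 (−1.99 to −1.73) in DN4 γδ−. It was −1.30 (−1.48 to −1.12) for DN3b γδ+ and −2.23 (−2.87 to −1.60) for DN4 γδ+. E2f1 (−1.03) and Cdc6 (−0.996) came next in DN3b γδ−, then Rfc3 (−0.78) and Orc1 (−0.69). At the other end, Tyms (0.25), Rrm1 (0.17), E2f8 (0.12), Dnmt1 (0.02) and Pold1 (0.01) were the 5 genes with a value above 0, and the intervals of E2f8, Dnmt1 and Pold1 included 0. E2f8 was at 14.5, 34.6, 37.5 and 13.8 CPM over the classes in DN3b γδ−. It thus rose more than 2-fold from low for both to histone-high (log2 ratio of 1.25, with an interval of 1.01 to 1.501). From high for both to mitosis-high it fell by 1.44 on the log2 scale. Tyms was at 132, 234, 278 and 161 CPM, and Rrm2 at 194, 359, 317 and 191 CPM.

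**Figure D5:**
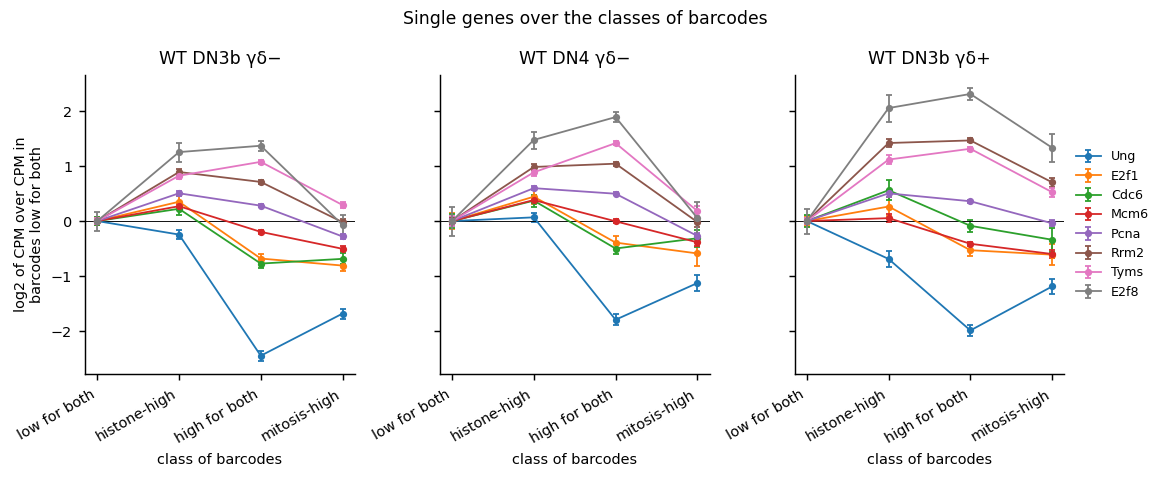
Level of 8 of the genes over the 4 classes of barcodes in DN3b γδ−, DN4 γδ− and DN3b γδ+, as the log2 of CPM over the CPM in barcodes low for both (y axis), with exact Poisson 95% intervals of the class. Ung drops from histone-high to high for both in all 3 panels (−2.20, −1.86 and −1.30), while E2f8, Rrm2 and Tyms are highest in histone-high or high for both barcodes.

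Uhrf1 was at 204 CPM (198 to 210) in DN3a barcodes low for both and at 194 (177 to 211) in histone-high ones. The 31 barcodes high for both and the 16 mitosis-high ones held 25 and 12 UMIs of it, or 202 CPM (130 to 298) and 188 CPM (96.9 to 328), too few to show a moderate difference. Rrm2 in DN3a ran from 6.57 in barcodes low for both to 258 in barcodes high for both. In DN4 γδ+ Uhrf1 was at 21.2 CPM in barcodes low for both, 172 in histone-high and 160 in high for both barcodes. The ratio of DN4 γδ+ over DN3a for Uhrf1 was therefore −3.27 (−3.40 to −3.13) in barcodes low for both and −0.17 (−0.50 to 0.15) in histone-high ones. The histone-high classes of these libraries were unlike, however. Histone-high barcodes of DN3a had a median of 5 UMIs of the list (1585 CPM), and 442 of the 671 lay near the histone limit. Those of DN4 γδ+ had a median of 33 UMIs (6548 CPM). Whether Uhrf1 differs between barcodes at a like point of the cell cycle was not tested.

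Other genes of the same processes were read as lists. Of 43 further replication genes, 42 passed the filter, and in DN3b γδ− over DN3a 22 were at least 2-fold higher and 2 lower, with a median of 1.09. Of all features in this comparison, 9.87% were higher and 16.8% lower, which is the background for each of the lists. For Pclaf, Chtf18, Pold4 and Rrm2b, brackets give the CPM in DN3a and then in DN3b γδ−. Pclaf, which binds PCNA, was highest at 4.91 (25.1 to 756 CPM), then Chtf18, of an alternative clamp loader, at 3.701 (2.25 to 29.3 CPM). Pold4, a small subunit of polymerase delta, was lowest at −1.28 (44.7 to 18.4 CPM), then Rrm2b, the reductase subunit of resting cells, at −1.01 (14.1 to 6.98 CPM). Of 11 homologous recombination genes, 10 were at least 2-fold higher, with a median of 2.41, and the smallest ratios were those of Xrcc2 (0.83) and Xrcc3 (1.25). Of 17 other E2F and cyclin genes, 16 passed the filter, 9 were higher and 1 lower, from Rbl2 (−1.12) and Tfdp2 (−0.95) to Ccne1 (4.77) and Ccna2 (5.54), with a median of 1.10. All 20 mitosis genes were higher, from Kif23 (1.61) and Cenpa (2.98) to Hmmr (5.82) and Ube2c (6.13), with a median of 4.76. In Lat-KO γδ− over DN3a the medians of the same 4 lists were 0.10, 0.49, 0.07 and 1.89. At least 2-fold higher were 3 of 42, 0 of 11, 1 of 16 and 18 of 20 genes (3.38% of all features).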

How the data were processed

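Single-cell 3′ libraries (10x Genomics, v3 chemistry) of 7 sorted mouse thymocyte populations were used, 1 library per group. The authors deposited raw UMI counts per gene and barcode, aligned with Cell Ranger to mm10 with the edited Trdc gene of the reporter mice added, version 5.0.1 in the submitters' processing notes and 4.0.0 in the file headers, together with name lists of barcodes and genes. These counts were not normalized. The feature and barcode lists deposited by the authors hold names only.

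Barcodes were kept with 200 genes or more and mitochondrial UMIs of 15% or less, and thymocyte barcodes had at most 1 UMI of Cd79a, Cd79b and Ms4a1 together. Of 90016 barcodes, 71081 were thymocyte barcodes. The B cell gate left out 615 to 1734 barcodes per library that passed the other filters, of which 150 to 312 were B-like. It left out 1603 of 8071 such barcodes in Lat-KO γδ− and 675 of 13617 in DN4 γδ−. No looser gate was tried. No doublet caller was run: the B cell gate removes mixed barcodes with B cells only, and an alternative left out the 8% of barcodes with the most UMIs. UMIs were summed per gene and library and scaled to 1000000 UMIs per library (CPM). Log2 ratios have exact conditional binomial intervals, levels exact Poisson intervals and shares exact Clopper-Pearson intervals, all at 95%. With 1 library per group no test was possible, and a gene was called past 2-fold. Features with a mean of at least 5 CPM over the libraries (9101 of 32286) formed the background. The code was tested on simulated counts with known fold changes.

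The 50 genes, their roles and the other lists were chosen with earlier results of these data known. Full values are given for the genes with the largest and the smallest ratio of DN3b γδ− over DN3a in each role, for genes that go against the median of the list (as ratios, or as counts where that median was near 0), for the 2 largest and 2 smallest ratios of each other replication list, and for Lat and Trdc. Some values that this rule names are not reported here. Gene positions and transcript lengths are those of GENCODE vM21, and promoters those of RefSeq (GRCm38.p6). Alternatives changed the barcode filters, the scaling, the weight of barcodes, the background, the filter on low genes and the fold. Python 3.11.15 with numpy 2.4.6, scipy 1.17.1, pandas 2.3.3 and matplotlib 3.10.9 was used, and R 4.3.3 with edgeR 4.0.16 for TMM factors only.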

Additional observations from a re-analysis of the deposited data

Results flagged for a closer look

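The cells with surface γδ TCR were set against those without in both genotypes. The median log2 ratio over the 50 genes was −0.12 for DN3b γδ+ over DN3b γδ− (all features, −0.04), with 22 genes above 0, 28 below and 0 past 2-fold, so it lay near 0. It was 1.41 for Lat-KO γδint over Lat-KO γδ− (all features, 0.20). The difference between these medians was not tested, since each group was 1 library, and the sorts differ as well, because the WT pair was sorted as DN3b and the Lat-KO pair as DN3, with γδint in place of γδ+. The DN3b γδ− cells were also sorted as positive for CD71, which is high on dividing cells. No CD71 gate is described for the Lat-KO sorts.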

How the results depend on the processing

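No median over the 50 genes changed sign under any alternative. Medians over all features did with TMM scaling, among them DN3b γδ− over DN3a (0.25), DN4 γδ+ over DN3b γδ+ (−0.20) and Lat-KO γδint over Lat-KO γδ− (−0.05). Of the medians of log2 ratios, 98 values stayed within the exact 95% order-statistic interval of the median over the 50 genes, and 22 did not. Of the summed CPM values, taken per library and, with the limits doubled, per class of barcodes, 26 stayed within the counting interval and 65 did not. The classes of Lat-KO γδint, not given above, are among them. The cause of each shift was not tested. With the 8% of barcodes with the most UMIs left out, the median was 2.24 for DN4 γδ− and 2.24 for DN3b γδ+ over DN3a, 0.21 for Lat-KO γδ− over DN3a (0 genes called), −1.90 for DN4 γδ+ over DN3b γδ+ and 1.66 for Lat-KO γδint over Lat-KO γδ−. With barcodes thinned to 4000 UMIs it was 2.09 for DN4 γδ− and 0.34 for DN4 γδ+ over DN3a and −1.85 for DN4 γδ+ over DN3b γδ+, with 3 genes called for Lat-KO γδ− over DN3a. With the mean of per-barcode CPM the same values were 2.07, 0.36, −1.77 and 2 genes. TMM scaling gave 2.15 for DN4 γδ−, 2.16 for DN3b γδ+, 0.18 for Lat-KO γδ− and 1.21 for Lat-KO γδint over DN3a, and −1.58 for DN4 γδ+ over DN3b γδ+. Without ribosomal-protein and mitochondrial genes in the total the medians were 1.29 for Lat-KO γδint over DN3a, −0.21 for DN3b γδ+ over DN3b γδ− and −1.21 for DN4 γδ+ over DN3b γδ+. With the CPM of B-like barcodes subtracted they were 1.88 for Lat-KO γδint over DN3a, −1.19 for DN4 γδ+ over DN3b γδ+ and 1.76 for Lat-KO γδint over Lat-KO γδ−. At a fold of 1.5, 23 genes were higher in DN4 γδ+ than in DN3a (16% of all features) and 2 lower (16.2%), and 8 were higher in Lat-KO γδ− (17%) and 0 lower (3.17%). Than in DN3b γδ−, 1 was higher in DN3b γδ+ (11.6%) and 1 lower (9.68%), and 1 was higher in DN4 γδ− (2.21%) and 3 lower (8.75%).

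No paired analysis was possible because each group was 1 library. Intervals of levels, ratios and shares cover counting error only, so differences between animals, sorts or library preparations are not in them. The B-like background rests on 31 to 63 barcodes per library at 4000 UMIs.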

Other observations

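The following genes of the further replication list were chosen after their values were seen. Samhd1, which breaks down deoxynucleotides, was at 59.6 CPM (57.8 to 61.5) in DN4 γδ+ and at 0.30 to 1.36 CPM in the other 6 libraries. Rpa3, the small subunit of the single-strand binding complex RPA, was at 83.2 CPM in DN3a, at 49.0 and 155 in the γδ− sorts (DN3b, then DN4), at 145 and 91.9 in the γδ+ ones, and at 30.8 in Lat-KO γδ− and 16.7 in Lat-KO γδint. The longest transcript of Rpa3 is 682 nt, and transcripts under 1000 nt were lower in Lat-KO γδint than in Lat-KO γδ− as a group (median log2 ratio of −0.73). The part of transcript length in its level was not tested.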
